A study of Mus musculus with 185 samples.

Results

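The oligodendrocyte lineage was followed with 9 genes chosen by name, out of 57010 genes in the count matrix. They stand for 3 stages: Pdgfra and Cspg4 for progenitors, Gpr17, Enpp6 and Bcas1 for newly formed oligodendrocytes, and Mbp, Mog, Mag and Mobp for mature, myelinating cells. The genes were chosen with earlier results of these data known, and all 9 passed the filter on low counts in both experiments.

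Oligodendrocytes wrap axons of the central nervous system in myelin, a stack of membrane that is rich in lipid and in a small set of abundant proteins. They arise from progenitors that divide throughout adult life, pass through a short premyelinating stage and then switch on the myelin genes under transcription factors such as Sox10 and Myrf. Pdgfra encodes the receptor for platelet-derived growth factor, which drives progenitor division, and Cspg4 encodes the NG2 proteoglycan on the same cells. Gpr17 encodes a receptor that holds cells in the premyelinating stage, Enpp6 a choline phosphodiesterase of newly formed oligodendrocytes, and Bcas1 a protein of early myelinating cells that mature cells also contain. Mbp and Mobp encode small basic proteins of compact myelin, Mog a protein of the outermost myelin surface, and Mag an adhesion molecule of the innermost wrap facing the axon.

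Bulk RNA was sequenced from 5 brain regions of each of 37 mice. All were male C57BL/6 J mice, an inbred strain, 8 weeks old and without transgene or drug. In the 16 h study the mice were housed in pairs, and 6 mice each stayed on chow, were moved to a high-fat diet (HFD) or were fasted. In the 24 h study the mice lived singly, and 9 stayed on chow while 10 were fasted. The regions were hypothalamus, hippocampus, superior colliculus and inferior colliculus in both studies, with prefrontal cortex added at 16 h and zona incerta at 24 h, so levels cannot be compared between the studies as if the tissue were the same. The study asked whether fasting or HFD alters expression in brain regions beyond those known for appetite control.

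The matrix gives 5 columns per mouse and names the mouse but not the region, so the columns of a mouse were added up, which gave 57962237 to 161577364 counts per mouse. Single columns held 2994 to 65973281 counts, so a deeply sequenced region weighs more in the sum of its mouse. Levels are CPM, the counts per 1000000 counts of this sum. A called gene is one with an adjusted p under 0.05 from edgeR's quasi-likelihood test, adjusted over all genes tested with the Benjamini-Hochberg method. Separate mice were the replicates throughout, and mice of the 16 h study share cages. The mitochondrial share of counts was 3.78% to 4.98% in the 16 h mice, against 8.57% to 16.7% in the 24 h mice. According to the sample labels, the superior colliculus of chow mouse 1423 and that of fasted mouse 1454 lay in each other's tube at 24 h. The study's methods say that the records of this pair were corrected, and whether the headings of the matrix already reflect it is not given in the sources used here. Without both mice none of the 9 members changed its call or direction at 24 h. The labels mark 29 libraries as failing at alignment, 25 of them from the 24 h study, where a block of libraries had no detectable RNA. The headings name no region, so the columns were not matched to these libraries. Each mouse has 5 columns for its 5 regions, so the failing libraries are among those added up. Ratios within a mouse are given with and without the columns that missed the limits on depth and on the number of genes. Only 27 columns missed these limits, so leaving them out does not remove all 29 failing libraries. In whole tissue, fewer oligodendrocytes and less RNA per oligodendrocyte cannot be told apart.

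In the GRCm39 annotation Pdgfra lies at chr5:75311994-75358876 (+ strand) and Cspg4 at chr9:56772317-56807187 (+). Enpp6 lies at chr8:47439919-47549797 (+) and Bcas1 at chr2:170188911-170269765 (-). Mog lies at chr17:37321521-37334350 (-), Mag at chr7:30598464-30614474 (-) and Mobp at chr9:119973770-120011273 (+), while Gpr17 and Mbp lie on chromosome 18.

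Per kilobase of exon, the order of mean levels ran from Mbp down to Enpp6 in every group. In 24 h chow mice Mbp stood at 256.8 ± 47.9 CPM per kb (SD, n = 9), followed by Mobp at 93.6 ± 17.8. Bcas1, Mag and Mog came next with 45.2 ± 8.09, 41.3 ± 11.4 and 27.2 ± 6.07 CPM per kb, and the ranges of neighbours in this trio overlapped. Gpr17 at 7.95 ± 0.855, Pdgfra at 4.92 ± 0.475, Cspg4 at 3.12 ± 0.399 and Enpp6 at 1.93 ± 0.479 CPM per kb closed the order, where only Cspg4 and Enpp6 overlapped. In 16 h chow mice Mag stood above Bcas1, at 31.6 ± 3.74 against 23.2 ± 3.19 CPM per kb (SD, n = 6 each), with overlapping ranges. Exon lengths are those of the whole gene model, from 2283 bases for Mog to 12310 bases for Pdgfra, so a gene of which only part is transcribed in the brain is set too low.

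Between single columns the members varied far more than between mice. Over the 72 columns of the 24 h study that passed the depth limits (1000000 counts or more, and 16000 genes or more expected when 500000 counts are drawn), Mbp ran from 1086 to 7297 CPM and Enpp6 from 1.52 to 45.8 CPM. Pdgfra ran from 29.1 to 113.7 CPM, which as a fold of the highest over the lowest column, 3.91, was the smallest among the members. Within 1 mouse the highest column exceeded the lowest by a median of 1.73-fold for Pdgfra, 1.47-fold for Cspg4, 2.51-fold for Mbp and 3.21-fold for Enpp6. At 16 h, over 86 columns, the corresponding medians were 1.86-fold, 1.52-fold, 2.23-fold and 2.00-fold.

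Across these columns the members did not group fully by stage in how they varied together. At 16 h the 6 pairs of mature members had Pearson correlations of log2 CPM between 0.961 and 0.987 over 86 columns. Bcas1 followed the mature members just as closely, with 0.981 to Mbp, whereas Gpr17 correlated with Bcas1 at 0.120 and with Pdgfra at 0.760. Gpr17 thus varied with the progenitor genes and Bcas1 with the myelin genes, although both were listed as newly formed. At 24 h, over 72 columns, Bcas1 and Mbp correlated at 0.967 and Gpr17 and Cspg4 at 0.883, while the mature pairs spread from 0.735 for Mag and Mobp to 0.974 for Mbp and Mobp. These values describe columns that share mice, regions and library batches.

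The genes outside the list that varied most like each stage were sought among the 17979 genes whose mean log2 CPM reached 0 in each study. Of the 5 nearest per stage, those reported for the mature stage were Tspan2, Mal, Cnp and Cldn11, all genes of myelin or of oligodendrocytes, with correlations from 0.942 to 0.974. For the newly formed stage they were Sox10, Mal, Ermn and Cldn11, from 0.866 to 0.933. For the progenitor stage they were Pcyox1, Neo1 and Emc1, from 0.803 to 0.863.

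**Figure D1:**
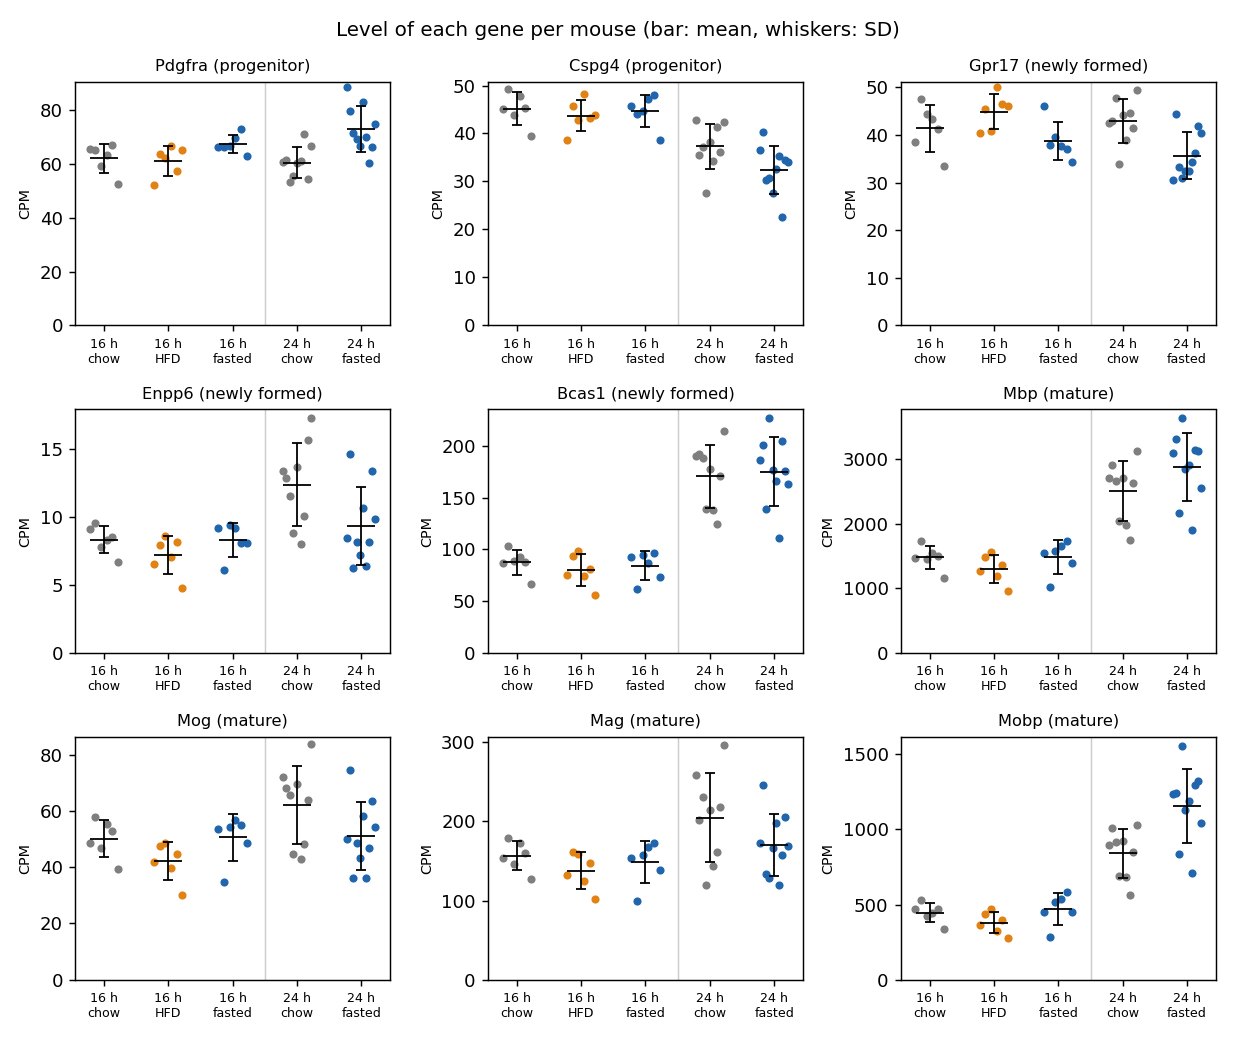
Level of each of the 9 genes in CPM (y axis from 0) for every mouse, grouped by study and diet on the x axis. Points are mice, horizontal bars are group means and whiskers are SD. Pdgfra and Mobp sit higher in the 24 h fasted mice than in the 24 h chow mice, with overlap, whereas the 3 groups of the 16 h study cover similar ranges for every gene.

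Fasting for 24 h was followed by more Pdgfra and more Mobp RNA, and by no called change in the other 7 members. Of the 9 members 2 were called, both higher. Among all 29011 genes tested, 11.4% were called, 5.78% as higher and 5.62% as lower. The members' median log2 fold changes were 0.09 for the progenitor pair, -0.21 for the newly formed trio and 0.02 for the 4 mature genes, beside -0.00 for all genes tested. No member had chow and fasted ranges of CPM that were free of overlap, as 1.3% of tested genes had.

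Among the progenitor genes, Pdgfra stood between 53.2 and 71.4 CPM in the 9 chow mice, with a median of 60.8. In the 10 fasted mice it stood between 60.5 and 88.6 CPM, with a median of 70.8. The ranges overlapped, and 5 of 10 fasted mice lay above every chow mouse. The log2 fold change was 0.33 ± 0.06 (SE, adjusted p = 0.000795), a 1.25-fold higher level. The call held in all 19 fits that left out 1 mouse and without mice 1423 and 1454 (adjusted p = 0.00170). It was lost when each column had equal weight in limma, with a log2 fold change of 0.23 (adjusted p = 0.106) over passing columns and 0.27 (adjusted p = 0.222) over all columns.

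Cspg4 moved the other way without a call. It ran from 27.6 to 42.8 CPM with a median of 37.2 on chow, and from 22.5 to 40.3 CPM with a median of 33.4 after fasting. The log2 fold change was -0.15 ± 0.07 (SE, adjusted p = 0.239), with a 95% interval from -0.30 to 0.01. The ratio of Cspg4 to Pdgfra was 0.617 ± 0.0683 in chow mice (SD, n = 9) and 0.445 ± 0.0511 in fasted mice (SD, n = 10). Over all columns the chow and fasted ranges of this ratio overlapped. With only the passing columns of each mouse it ran from 0.521 to 0.711 on chow and from 0.398 to 0.520 after fasting, without overlap. The share of all tested genes that separate in this way is not given here. Both genes are also expressed outside the lineage, Cspg4 in mural cells of vessels and Pdgfra in perivascular fibroblasts. Summed over 8 mural cell markers, which did not include Cspg4, the level ran from 203.4 to 302.2 CPM on chow and from 139.3 to 219.0 CPM after fasting, and 4 of the 8 were called, all lower, among them Anpep with a log2 fold change of -1.09. Among the 7 perivascular fibroblast markers 5 were called, of which Pdgfra alone was higher and 4 were lower, with log2 fold changes of -1.49 for Col3a1 and -1.07 for Lum. With equal weight per passing column in limma, Pdgfra was not among the called ones. The part of vessel cells in the Cspg4 and Pdgfra values was not tested.

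The region just upstream of the start of the canonical transcript is shown for Pdgfra, Mobp and Mog, since Pdgfra and Mobp passed the test and Mog, also a mature gene, did not. Bases were read from GRCm39, 5′ to 3′ on the strand of the gene, from 250 bases upstream. They were cut before the first annotated exon met within that window. The Pdgfra and Mobp windows lie inside the annotated genes, which begin at 75311994 and 119973770, so other transcripts start further upstream. The Mag window, counted below, also lies inside its gene, whereas the Mog window lies upstream of the whole gene. Capitals mark CANNTG, an E-box, the letters bound by Olig and other basic helix-loop-helix factors, and ACAAAG, a core bound by SOX factors, on either strand. In none of the 3 stretches did an E-box overlap an ACAAAG.
Pdgfra, chr5:75312672-75312833, + strand: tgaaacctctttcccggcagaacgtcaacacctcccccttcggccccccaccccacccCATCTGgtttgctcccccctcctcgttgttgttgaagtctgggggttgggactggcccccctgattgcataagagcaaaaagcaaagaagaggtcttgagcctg
Mobp, chr9:119978493-119978683, + strand: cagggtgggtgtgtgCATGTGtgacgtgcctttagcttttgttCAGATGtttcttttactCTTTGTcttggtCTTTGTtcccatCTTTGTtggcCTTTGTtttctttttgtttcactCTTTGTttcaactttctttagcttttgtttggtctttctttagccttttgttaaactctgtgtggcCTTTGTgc
Mog, chr17:37334351-37334600, - strand: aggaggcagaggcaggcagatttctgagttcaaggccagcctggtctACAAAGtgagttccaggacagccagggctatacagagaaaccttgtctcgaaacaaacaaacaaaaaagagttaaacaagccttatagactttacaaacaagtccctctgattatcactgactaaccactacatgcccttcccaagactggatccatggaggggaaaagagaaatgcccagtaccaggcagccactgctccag

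The Mobp stretch holds 6 copies of ACAAAG, read as CTTTGT on the printed strand, and the full 250 bases hold 7. The Mog window holds 1 and the windows of Pdgfra and Mag hold 0. Of the windows of 21751 protein-coding genes, 15.9% hold the letters at least once, and the Mobp window is the only 1 with 7 or more. That cutoff was set at the count of Mobp itself, a gene shown because it was called, so it gives no independent background. An E-box occurs 2 times each in the Mobp and Mag windows, 1 time in that of Pdgfra, not in that of Mog, and at least once in 64.8% of windows. The core ACANNNTGT of glucocorticoid receptor sites was found 1 time in the Mag window, 0 times in the other 3, and in 5.22% of all windows. These matches describe letters and not binding.

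Of the newly formed genes none was called at 24 h. Gpr17 lay between 33.9 and 49.5 CPM with a median of 42.9 on chow, and between 30.6 and 44.4 CPM with a median of 33.8 after fasting. 5 of 10 fasted mice lay below every chow mouse. The log2 fold change was -0.21 ± 0.08 (SE, adjusted p = 0.0846), with a 95% interval from -0.37 to -0.05. Leaving out fasted mouse 1425 or 1445 brought the adjusted p under the threshold, to as low as 0.0415. Gpr17 shares 5.93% of its exon bases with Lims2 on the opposite strand, and Lims2 was called lower with a log2 fold change of -0.29.

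Enpp6 lay between 7.99 and 17.3 CPM with a median of 12.8 on chow, and between 6.25 and 14.6 CPM with a median of 8.32 after fasting. Both groups spread widely and overlapped over most of their ranges. The log2 fold change was -0.36 ± 0.16 (SE, adjusted p = 0.170). Bcas1 differed least of all members from a log2 fold change of 0 at 24 h. It ran from 124.1 to 214.6 CPM with a median of 177.8 on chow, and from 110.7 to 226.8 CPM with a median of 176.3 after fasting. Its log2 fold change was 0.10 ± 0.13 (SE, adjusted p = 0.722).

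Among the mature members, Mobp and Mbp stood higher in the fasted mice and Mog and Mag lower, with a call for Mobp alone. Mobp ran from 563.1 to 1031 CPM with a median of 895.5 on chow, and from 713.4 to 1553 CPM with a median of 1213 after fasting. 8 of 10 fasted mice lay above every chow mouse. The log2 fold change was 0.52 ± 0.15 (SE, adjusted p = 0.0247), a 1.43-fold higher level. Leaving out fasted mouse 1434 raised the adjusted p to 0.0516, and leaving out mice 1423 and 1454 gave a log2 fold change of 0.55 with an adjusted p of 0.0139. With equal weight for all columns in limma it was 0.38 (adjusted p = 0.0609).

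Mbp ran from 1751 to 3130 CPM with a median of 2660 on chow, and from 1908 to 3638 CPM with a median of 3007 after fasting. The groups overlapped, and 4 of 10 fasted mice exceeded every chow mouse. Its log2 fold change was 0.26 ± 0.14 (SE, adjusted p = 0.260), with a 95% interval from -0.03 to 0.54.

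Mog ran from 43.0 to 83.7 CPM with a median of 65.5 on chow, and from 36.1 to 74.5 CPM with a median of 49.3 after fasting. Its log2 fold change was -0.23 ± 0.14 (SE, adjusted p = 0.330). Mag ran from 119.3 to 297.2 CPM with a median of 215.0 on chow, and from 119.3 to 246.6 CPM with a median of 167.2 after fasting. Its log2 fold change was -0.22 ± 0.15 (SE, adjusted p = 0.397). For both genes the groups overlapped widely and the fasted median lay below the chow median.

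**Figure D2:**
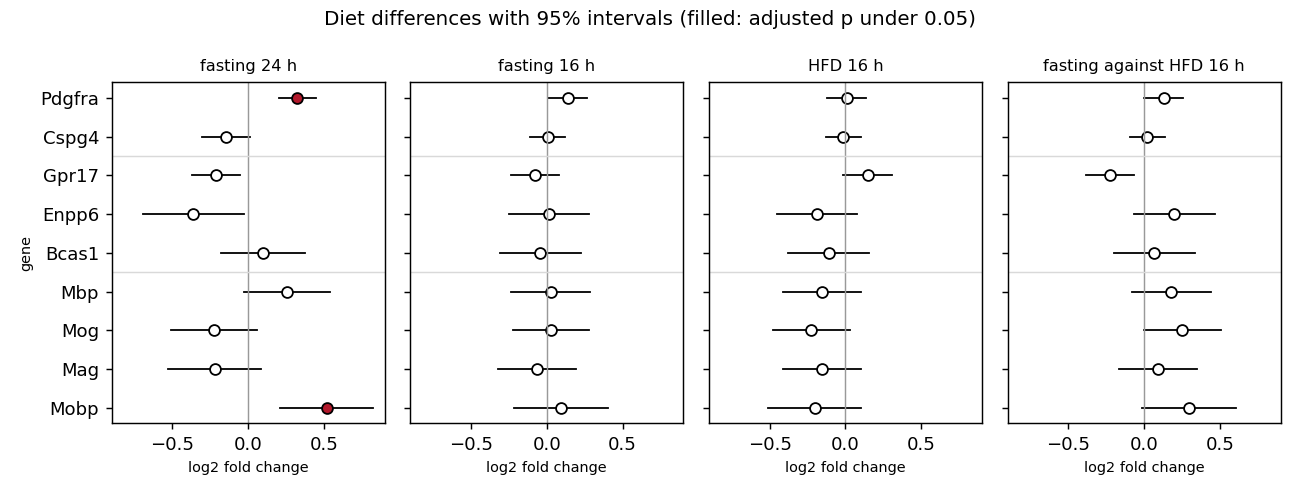
Log2 fold change (x axis) of the 9 genes (y axis, progenitor to mature from top to bottom) in 4 comparisons of diets. Lines are 95% intervals derived from the F statistic of the edgeR test. Filled points have an adjusted p under 0.05. Pdgfra at 0.33 and Mobp at 0.52 after 24 h of fasting are the only filled points.

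Since the mature members mark the same stage, their ratios within a mouse were set side by side. Mog was taken as the denominator after the values had been seen, so the ratios are given without a test. Other denominators were looked at too, and of the 36 pairs of members 3 had ratios without overlap between chow and fasted mice at 24 h, 3 between fasted and HFD mice, and 0 in the other 2 comparisons. The ratio of Mobp to Mog ran from 11.7 to 15.9 in the 9 chow mice, with a median of 13.4. In the 10 fasted mice it ran from 16.6 to 31.9, with a median of 22.0. The groups did not overlap. Among all tested genes, 0.403% had ratios to Mog without overlap, and Mobp was the only one of the other 8 members among them. The ratio of Mbp to Mog ran from 36.3 to 46.0 on chow and from 44.5 to 74.8 after fasting, with overlap.

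Columns that missed the depth limits held up to 32.2% of the counts of a 24 h mouse, and single mice rested on them. With only the passing columns added up, the ratio of Mobp to Mog ran from 11.7 to 13.98 on chow and from 16.6 to 24.2 after fasting, again without overlap. Fasted mouse 1434, the highest at 31.9, then stood at 20.9, and chow mouse 1442 at 12.0 in place of 15.5. Ratios of Mbp to Mog then no longer overlapped, with up to 41.3 on chow and 44.5 or more after fasting. Of the 36 pairs 9 were then without overlap. For ratios over passing columns, the share of all tested genes without overlap is not given here, so these separations have no background beside them.

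The ratio of Mag to Mog stayed within one range. It ran from 2.68 to 3.60 on chow and from 2.63 to 3.83 after fasting. Against Mag as denominator, Mobp ran from 3.46 to 5.78 on chow and from 5.03 to 12.1 after fasting, with overlap. With the passing columns alone that ratio ran up to 3.97 on chow and from 5.03 to 6.54 after fasting, without overlap. The 2 basic proteins of compact myelin differed from each other as well, since the ratio of Mobp to Mbp ran from 0.322 to 0.345 on chow and from 0.374 to 0.427 after fasting without overlap, as for 0.765% of tested genes. Mog shares 64.56% of its exon bases with Zfp57 on the opposite strand, so its level depends on how the authors' counting treated strand, which the sources used here do not give. Zfp57 itself stood between 4.77 and 13.4 CPM in these mice, with a log2 fold change of -0.23 ± 0.15 (SE, adjusted p = 0.358).

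At 16 h the same ratio did not separate the diets. Mobp to Mog ran from 7.99 to 9.67 on chow, from 8.25 to 9.64 on HFD and from 8.25 to 10.6 after fasting. These values lie below those of the 24 h chow mice, in a study with another set of regions.

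**Figure D3:**
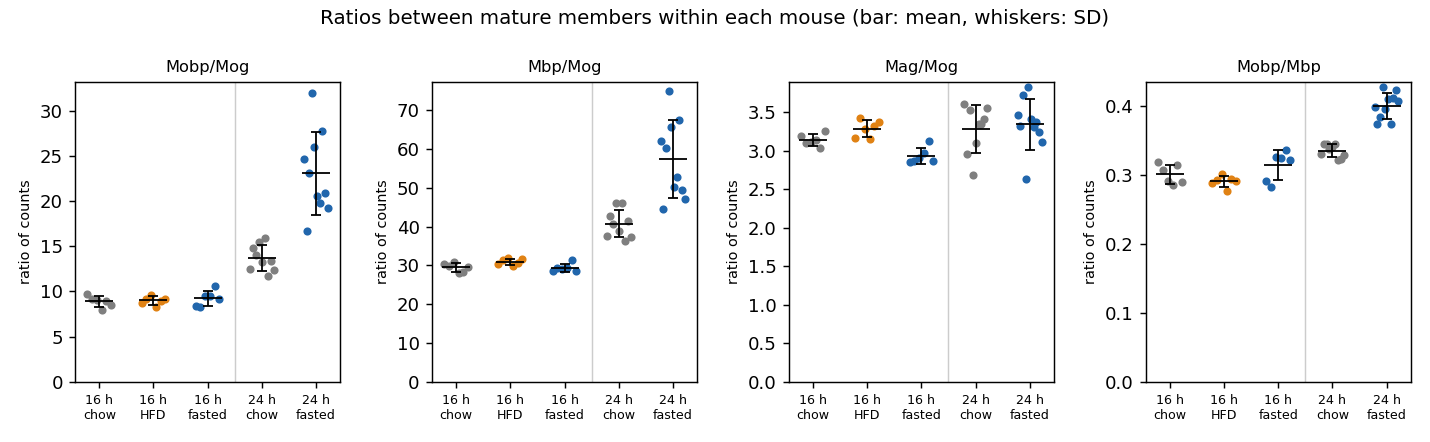
Ratios of counts between mature genes within each mouse (y axis from 0), grouped by study and diet. Points are mice, horizontal bars are means and whiskers are SD. The ratio of Mobp to Mog lies above 16 in every 24 h fasted mouse and below 16 in every 24 h chow mouse, and the ratio of Mag to Mog covers 1 range in both.

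Single columns of the 24 h study also differed in Mobp against Mog. In 34 passing chow columns of the 24 h study the ratio ran up to 18.98 with a median of 12.0. In 38 passing fasted columns it ran from 11.8 to 34.6 with a median of 20.8. The highest chow value was 1 of the 4 passing columns headed with mouse 1423, whose median was 12.1, and the lowest fasted value was 1 of 4 headed with mouse 1454, whose median was 19.1. These are the mice whose superior colliculus tubes were exchanged, and the columns name no region. Whether the exchange bears on these values was not tested. Without both mice the chow columns ran up to 17.2 and the fasted columns from 15.6 to 34.6. The value of 17.2 came from mouse 1422 and that of 34.6 from mouse 1445. All 5 columns of mouse 1445 passed although the labels mark its hypothalamus library as failing at alignment. Passing columns thus include failing libraries, and which columns these are is not known.

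**Figure D4:**
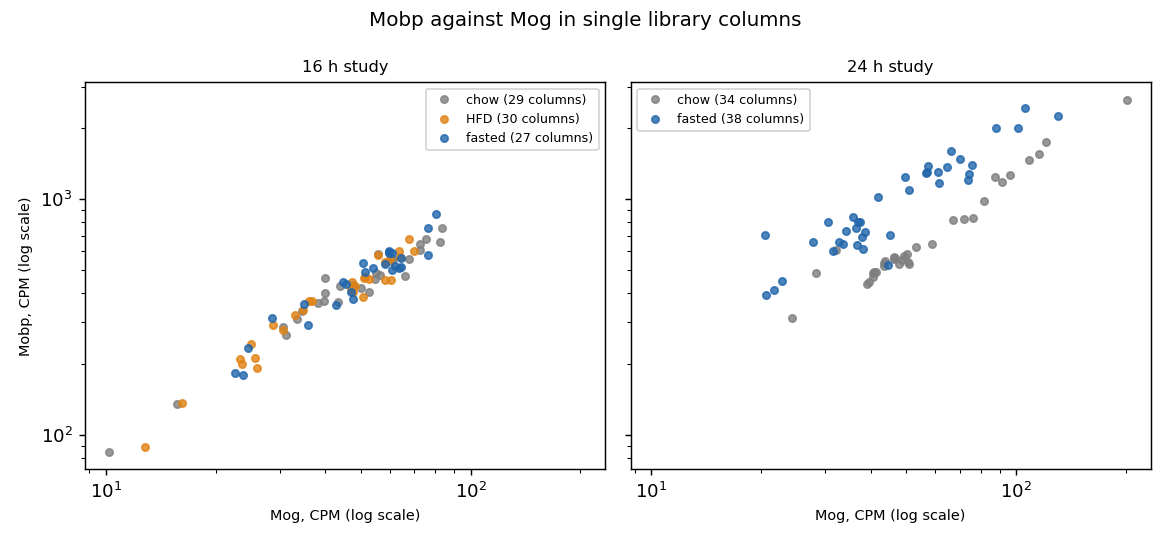
Mobp against Mog in single library columns that passed the depth limits, in CPM on log axes, for the 16 h study (left) and the 24 h study (right), coloured by diet. At 16 h the diets fall on 1 band, and at 24 h the fasted columns form a band above the chow columns, with medians of the ratio of 20.8 and 12.0.

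The level of the other mature myelin genes differed between mice of one diet by as much as between diets. Their mean log2 CPM ran from 5.75 to 6.50 on chow and from 5.38 to 6.36 after fasting at 24 h. With this mean as a covariate, an analysis added after the values of the members had been seen, 4 of the 9 members were called, and 7.51% of all genes. Mobp then had a log2 fold change of 0.76 (adjusted p = 5.89e-05), Mbp of 0.49 (adjusted p = 0.00185), Pdgfra of 0.33 (adjusted p = 0.00260) and Bcas1 of 0.32 (adjusted p = 0.0375), relative to that mean. Mog at 0.04 and Mag at 0.06 then stood above 0, with adjusted p of 0.618 and 0.713. The mean itself contains genes that were called lower, so these values are relative and not absolute.

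The other genes of the lineage were counted in lists drawn up by role, beside the 11.4% of all genes called at 24 h. Among 12 further progenitor genes, 2 rose and none fell, with a median log2 fold change of -0.00. Neu4, a sialidase, ran from 6.78 to 9.96 CPM on chow and from 10.15 to 15.4 CPM after fasting, without overlap, a log2 fold change of 0.58 ± 0.09 (SE, adjusted p = 0.000135). Vcan, the matrix proteoglycan versican, rose by 0.39 ± 0.06 (SE, adjusted p = 9.54e-05), from 29.9 to 39.7 CPM on chow against 38.4 to 58.2 CPM after fasting, with a narrow overlap. Of 10 cell division genes none was called. Their log2 fold changes ran from -0.27 to 0.45, with a median of 0.21. By edgeR 3 stood at an unadjusted p under 0.05, and 2 were called by DESeq2, both lower.

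Among 13 further newly formed genes, 4 rose and 2 fell, with a median of 0.12. Mycl rose by 0.55 ± 0.14, Tns3, the focal adhesion protein tensin 3, by 0.35 ± 0.05 and Zfp488, a nuclear cofactor of oligodendrocytes, by 0.30 ± 0.08 on the log2 scale (SE). The transcription factor Nkx2-2 fell by 0.48 ± 0.14 on the log2 scale (SE, adjusted p = 0.0274), and its call was lost in 4 of the 19 fits without 1 mouse. Lims2 fell by 0.29 ± 0.07 on the log2 scale (SE, adjusted p = 0.0136).

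The 23 further mature myelin genes that were tested were called in both directions. 3 rose and 8 fell, with a median of -0.18. Apod, a secreted lipid carrier, ran up to 173.5 CPM on chow and from 139.5 to 346.4 CPM after fasting, a log2 fold change of 1.06 ± 0.14 (SE, adjusted p = 2.85e-05). Hapln2, a matrix link protein of nodes of Ranvier, rose by 0.75 ± 0.13 and Anln, a cytoskeletal protein, by 0.54 ± 0.15 on the log2 scale (SE).

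The largest fall of that list was in Opalin, a membrane protein of myelin. It ran from 19.4 to 35.7 CPM on chow and from 5.24 to 20.1 CPM after fasting, a log2 fold change of -1.26 ± 0.19 (SE, adjusted p = 0.000131). Car2, carbonic anhydrase 2, fell by 0.80 ± 0.12 on the log2 scale (SE, adjusted p = 7.91e-05) without overlap, from 154.1 ± 25.6 CPM to 85.3 ± 15.8 CPM (SD). The uncalled genes named in the lists that follow were singled out after their values had been seen.

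Of 12 genes of myelin lipid synthesis, 4 fell and none rose, with a median of -0.23. Ugt8a, which makes galactosylceramide, ran from 59.7 to 127.2 CPM on chow and from 27.9 to 62.1 CPM after fasting, a log2 fold change of -1.14 ± 0.14 (SE, adjusted p = 1.96e-05). Fa2h, which hydroxylates its fatty acid, fell by 0.68 ± 0.15 on the log2 scale (SE, adjusted p = 0.00531). Gal3st1, which sulfates the lipid to sulfatide, fell by 0.39 ± 0.11 on the log2 scale (SE, adjusted p = 0.0279), and its call was lost in 5 of 19 fits without 1 mouse. In the fits without 1 mouse the number that fell ran from 2 to 5. It was 2 without chow mouse 1431, 1432, 1441 or 1451 or fasted mouse 1424. With only the passing columns 2 of the 12 genes fell, and with each column at equal weight in limma 2 did.

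Among 12 lineage transcription factors, 2 rose and 1 fell, with a median of -0.06. Sox8 rose by 0.31 ± 0.09 (SE, adjusted p = 0.0242) and Zfp24 by 0.32 ± 0.06 (SE, adjusted p = 0.00162) on the log2 scale, and Nkx2-2 stood in this list too. The call of Sox8 was lost in 1 of 19 fits without 1 mouse, with an adjusted p of 0.0507. Sox10 at -0.38 ± 0.14 (SE, adjusted p = 0.0818) and Myrf at 0.27 ± 0.11 (SE, adjusted p = 0.145) were not called. Of 9 genes that hold back differentiation, the member Gpr17 among them, 1 rose and 4 fell. Their median of -0.21 was the value of Gpr17 itself. Id2, an inhibitor of helix-loop-helix factors, rose by 0.48 ± 0.10, while the transcription factors Sox6 and Hes5 fell by 0.50 ± 0.10 and 0.44 ± 0.13 on the log2 scale and the receptor Gpr37 fell by 0.53 ± 0.12 (SE). The call of Hes5 was lost in 6 of 19 fits without 1 mouse.

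Of 17 tested ligands and receptors that act on the lineage, 4 rose and 3 fell, with a median of 0.05. Neither Pdgfa at 0.05 ± 0.06 nor Pdgfc at 0.05 ± 0.08 (SE), the ligands of the Pdgfra receptor, was called, with adjusted p of 0.684 and 0.779. Fgfr3 rose by 0.76 ± 0.09, Fgf2 by 0.39 ± 0.10 and Lifr by 0.29 ± 0.06 on the log2 scale, while P2ry12 fell by 0.64 ± 0.11, Lpar1 by 0.61 ± 0.12 and Fgfr2 by 0.49 ± 0.10 (SE). Fgfr3 is also a marker of astrocytes and P2ry12 one of microglia.

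**Figure D5:**
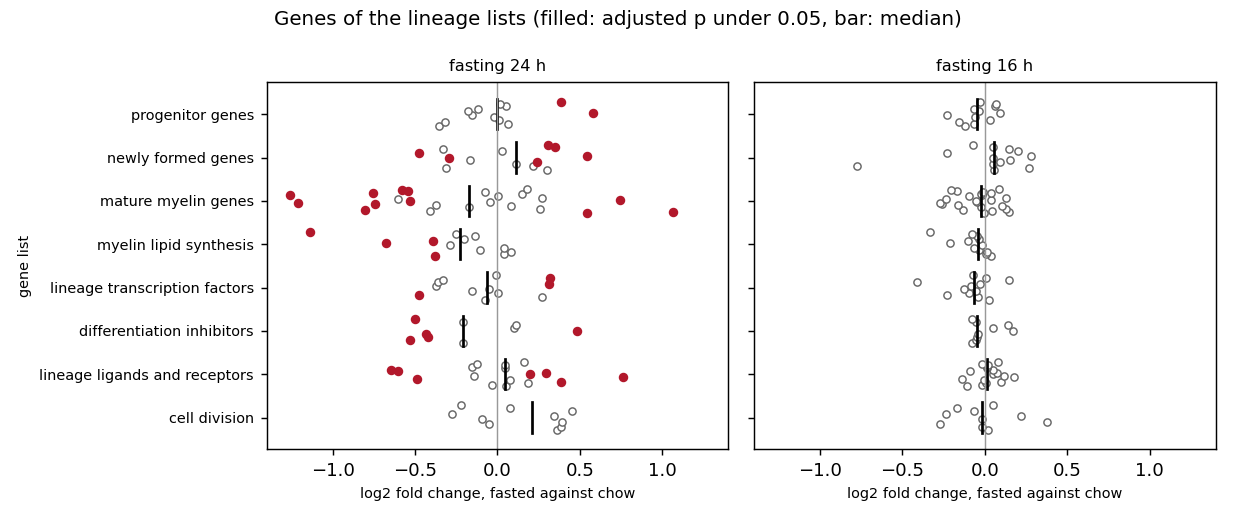
Log2 fold change of fasted against chow mice (x axis) for the tested genes of 8 lineage lists (y axis) at 24 h (left) and 16 h (right). Each point is a gene, filled where the adjusted p is under 0.05, and black bars are list medians. At 24 h filled points lie on both sides of 0 in the mature myelin list, 3 above and 8 below, and at 16 h none is filled.

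Markers of other cells moved at 24 h as well. Of 8 microglia markers, 5 fell and none rose, with Aif1 at -0.91 and Itgam at -0.82. Of 8 astrocyte markers Fgfr3 rose and 2 fell, Aqp4 by 0.85 and Gja1 by 0.25 on the log2 scale. The astrocyte list had a median log2 fold change of 0.16. Its summed level had a median of 4688 CPM on chow and 4952 CPM after fasting. Medians were -0.53 for the microglia list, -0.30 for the mural list and -0.13 for the endothelial list, where values reached 0.23. Of 6 endothelial markers 3 fell, with Tek at -0.77, Cldn5 at -0.52 and Flt1 at -0.27, and in the mural list Acta2 stood at -0.72 and Notch3 at -0.37. Of the 19 fits without 1 mouse, the call of Flt1 was lost in 10, that of Acta2 in 9 and that of Gja1 in 4, and the number of mural markers that fell ran from 2 to 5, with 2 without chow mouse 1451. Without mice 1423 and 1454, the calls of Nkx2-2, Hes5, Gja1, Flt1 and Acta2 were lost. No neuronal marker of 10 and no choroid plexus or ependymal marker of 6 was called by edgeR or had an unadjusted p under 0.05. Schwann cells make the myelin of peripheral nerves and also express Mbp and Mag. Their 5 markers summed to a median of 4.17 and at most 5.14 CPM on chow. After fasting they summed to a median of 4.97 and at most 9.351 CPM, with Pmp2 at 0 in every fasted mouse. Of 4 tested, 1, Ncmap, was called higher at 0.44, a call lost in 10 of 19 fits without 1 mouse. The part of these cells in the members' values was not tested.

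After 16 h of fasting no member was called, as no gene was among the 29746 tested (0.0%), where 2267 genes had an unadjusted p under 0.05 and DESeq2 called 19. Pdgfra again stood higher in the fasted mice. It ran from 52.6 to 66.98 CPM with a median of 64.3 on chow, and from 63.2 to 73.2 CPM with a median of 66.4 after fasting. The log2 fold change was 0.14 ± 0.06 (SE, unadjusted p = 0.0401, adjusted p = 0.642 by edgeR), with a 95% interval from 0.01 to 0.27. The 8 other members had log2 fold changes from -0.08 for Gpr17 to 0.09 for Mobp. The interval for Mobp ran from -0.21 to 0.40 and that for Mog from -0.22 to 0.28. The chow and fasted ranges of all 9 members overlapped, as those of all but 0.289% of tested genes did.

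The fasting effects of the 2 studies were compared with an interaction term, which was called for 0 of the 9 members and for 1.7% of 30849 genes. That share is 523 genes, and DESeq2 called 665 genes. Mobp had the largest difference of the members, 24 h minus 16 h, with 0.43 ± 0.22 on the log2 scale (SE, unadjusted p = 0.0622, adjusted p = 0.508). Pdgfra differed by 0.19 ± 0.09 (SE, unadjusted p = 0.0369, adjusted p = 0.405). It was the only member with an unadjusted p under 0.05. Study, housing, 1 of the 5 regions and sequencing differ along with the length of the fast, so these cannot be told apart.

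On HFD for 16 h no member was called either, and no gene of 29746 was (0.0%), with 2914 genes at an unadjusted p under 0.05 and 5 called by DESeq2. The 4 mature members all had log2 fold changes below 0, from -0.22 for Mog to -0.15 for Mbp, and none had an interval that excluded 0. The median of the 4 was -0.18, beside -0.16 for 23 other mature myelin genes and -0.01 for all genes. Mog ran from 39.3 to 57.7 CPM with a median of 50.7 on chow, and from 30.1 to 48.7 CPM with a median of 43.2 on HFD (adjusted p = 0.544). With the mean level of the other mature myelin genes as covariate, Mbp, Mag and Mobp stood at 0.02, 0.02 and 0.00 and Mog at -0.06. Gpr17 stood on the other side, at 0.15 ± 0.08 (SE, adjusted p = 0.530), and Pdgfra and Cspg4 at 0.01 and -0.02. 0.662% of tested genes had HFD and chow ranges without overlap, and no member did.

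Fasted mice were also set against HFD mice at 16 h, where 65 genes or 0.219% were called and none of them was a member. Leaving out any mouse of these groups other than HFD mouse 14 moved that share by over 1.5 times, from 0.0% without fasted mouse 11 to 0.337% without fasted mouse 7. With counts summed per cage, the unit to which diet was assigned, the share was 0.0%. Gpr17 came nearest, with 40.5 to 50.1 CPM and a median of 45.8 on HFD, and 34.3 to 46.2 CPM and a median of 37.8 after fasting. 5 of 6 fasted mice lay below every HFD mouse. Its log2 fold change was -0.22 ± 0.08 (SE, unadjusted p = 0.00843, adjusted p = 0.230). Mobp at 0.30, Mog at 0.25 and Mbp at 0.18 stood higher in the fasted mice, with adjusted p of 0.462, 0.440 and 0.651. No member was free of overlap in CPM, as 1.09% of tested genes were. The ratio of Mag to Mog ran from 3.15 to 3.42 on HFD and from 2.86 to 3.12 after fasting without overlap, and that of Bcas1 to Mog from 1.80 to 2.03 and up to 1.78. The ratio of Mbp to Mag ran up to 9.77 on HFD and from 9.86 upward after fasting, without overlap. Of all tested genes, 0.175% had ratios to Mog and 0.171% ratios to Mag without overlap in this comparison.

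In the lineage lists no gene was called at 16 h by edgeR in any of the 3 comparisons. For fasting against chow the medians of the 8 lists lay between -0.06 and 0.06. At an unadjusted p under 0.05 stood 2 of 23 mature myelin genes, 1 of 12 lipid synthesis genes and 1 of 12 progenitor genes. Ugt8a had the largest fall of its list in both fasts, with -0.33 ± 0.12 at 16 h (SE, adjusted p = 0.579).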

How the data were processed

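Libraries were made from total RNA after removal of ribosomal RNA. The deposited table holds whole-number counts per gene, which the authors made with STAR 2.7.3a on GRCm39 after bcl2fastq 2.20.0. The strand setting of the counting is not given in the sources used here, and no correction for depth had been applied to the deposited counts. Columns of a mouse were summed, and genes were filtered with filterByExpr, scaled with TMM and tested with edgeR 4.0.16 (quasi-likelihood, Benjamini-Hochberg, threshold 0.05) in R 4.3.3, separately per study. CPM printed for single mice are counts per 1000000. DESeq2 1.42.0, limma 3.58.1 (prior count 2) and sva 3.50.0 gave alternatives. Of all columns 27 missed the depth limits and stayed in the sums, as did the libraries that failed at alignment. All members were named, and from each of 19 lists up to 3 called genes per direction. Some genes that these rules pick are not reported here. Of 169 list genes, 2 had no unique match. Members and lists were chosen with earlier results of these data known. Tests were tried on simulated counts. Motifs and coordinates come from the GRCm39 sequence and GENCODE annotation.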

Additional observations from a re-analysis of the deposited data

Results flagged for a closer look

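Among 45 groups of mice and members examined for a single mouse apart from the rest, where chance gives about 1 in 20, 1 stood out. Mouse 8 of the 16 h fasted group had the lowest Mog level, 34.66 CPM, and its gap to the next mouse was 0.639 of the range of the group. The same mouse was also the lowest of its group for Mbp, Mag, Mobp, Enpp6 and Bcas1, with smaller gaps.

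The fasting effect differed between the studies by the interaction test for 16 of the list genes reported here, given as the 24 h minus the 16 h log2 fold change with adjusted p from edgeR. In the progenitor and newly formed lists these were Neu4 with 0.49 (adjusted p = 0.0276), Vcan with 0.42 (adjusted p = 0.00343) and Tns3 with 0.30 (adjusted p = 0.0257). Among myelin and lipid genes they were Apod with 0.92 (adjusted p = 0.00724), Car2 with -0.67 (adjusted p = 0.0172), Opalin with -1.24 (adjusted p = 0.00612) and Ugt8a with -0.80 (adjusted p = 0.0296). Among regulators and receptors they were Zfp24 with 0.31 (adjusted p = 0.0448), Fgfr3 with 0.59 (adjusted p = 0.00973) and P2ry12 with -0.70 (adjusted p = 0.00953). Among markers of other cells they were Aqp4 with -0.66, Aif1 with -0.82, Tek with -0.78, Cldn5 with -0.57, Col3a1 with -1.63 and Lum with -1.14. Length of fast, housing, 1 region and sequencing cannot be told apart in these differences.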

How the results depend on the processing

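At 24 h the number of called genes was 817 with equal weight for all columns in limma and 2179 with the mean of other mature myelin genes as covariate. In the first, Pdgfra at 0.27 and Mobp at 0.38 lost their calls and Bcas1 stood at -0.01. Pdgfra at 0.23 also lost its call with equal weight per passing column. In the second, Bcas1 at 0.32 and Mbp at 0.49 gained calls and Mog at 0.044 and Mag at 0.064 changed sign. Without 1 mouse in turn Mobp ran from 0.45 to 0.58 and Gpr17 from -0.24 to -0.17 on the log2 scale, and the log2 ratio of Mag to Mog from -0.0093 to 0.063.

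For fasting at 16 h DESeq2 called 19 genes. With equal weight for all columns in limma, Pdgfra stood at -0.17, Cspg4 at -0.20, Enpp6 at -0.30, Mbp at -0.40, Mog at -0.23 and Mobp at -0.27. With sums per cage Cspg4 stood at -0.0038, Enpp6 at -0.014, Mbp at -0.012 and Mog at -0.0081, and with the myelin covariate Bcas1 stood at 0.014. Without 1 mouse in turn Bcas1 ran from -0.11 to 0.032, Cspg4 from -0.032 to 0.032, Enpp6 from -0.042 to 0.091, Mag from -0.12 to 0.028, Mbp from -0.036 to 0.11 and Mog from -0.034 to 0.12.

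For HFD DESeq2 called 5 genes. Cspg4 stood at 0.055 with a surrogate variable, 0.000306 with clock time, 0.000163 with equal weight per passing column and 0.021 with the myelin covariate, which also gave Bcas1 0.069, Mbp 0.022, Mag 0.016 and Mobp 0.00127. With sums per cage Pdgfra stood at -0.00153. Without 1 mouse in turn Cspg4 ran from -0.053 to 0.015 and Pdgfra from -0.038 to 0.047.

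For fasting against HFD the share of tested genes called, 0.219% (65 genes), was 1.18% (354 genes) with DESeq2, 0.477% with clock time, 0.383% with a surrogate variable, 0.054% (26 genes) without a filter, and 0.0% both with sums per cage and with equal weight for all columns in limma, where 3386 genes had an unadjusted p under 0.05 in edgeR. That limma fit gave Pdgfra -0.18, Cspg4 -0.19, Enpp6 -0.12, Bcas1 -0.21, Mbp -0.23, Mag -0.21 and Mobp -0.076. Cspg4 stood at -0.022 with a surrogate variable, and the covariate gave Cspg4 -0.0034, Bcas1 -0.054 and Mag -0.036. Without 1 mouse in turn the share called ran from 0.0% to 0.337%, Bcas1 from -0.014 to 0.15 and Cspg4 from -0.0090 to 0.050. The causes were not tested. The limma fit over all columns gives weight to columns with few counts, down to 2994 in 16 h fasted mouse 10. At 24 h it gives weight to columns that missed only the limit on genes, with up to 21281992 counts in chow mouse 1442. No paired analysis was possible because mouse numbers are not shared between groups. With the round of cages as a term at 16 h, no member changed direction or call, and the share called for fasting against HFD was 0.299%.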
